A study of Arabidopsis thaliana with 6 samples.

Results

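The machinery that forms the 3′ end of messenger RNA and later removes it was examined through 44 genes: 8 of the cleavage and polyadenylation specificity factor (CPSF), 4 of the cleavage stimulation factor (CstF), 4 of the cleavage factors CFI and CFII, the RNA-binding regulators FCA and FPA, 3 nuclear poly(A)-binding proteins, 6 deadenylation genes, 4 decapping genes, 3 XRN exonucleases, 7 exosome genes and 3 genes of nonsense-mediated decay. They were taken by locus identifier from the 33323 genes counted, and all 44 passed the filter on low counts that left 18317 genes for testing. The identifiers were chosen for function and not for their values, though with earlier results of these data known. Transcripts were counted by sequencing in pieces of Arabidopsis thaliana style holding grown pollen tubes. The wild-type group was 3 libraries of the Col-0 strain and the mutant group 3 libraries of paps1-1, a mutant allele of the nuclear poly(A) polymerase gene PAPS1 in the same strain. Which of pollen tube and style was mutant is not told by the labels, nor are plant age and growth temperature. Each library mixes RNA of pollen tube and style, so fewer cells of a type and less RNA per cell cannot be told apart.

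By way of background, a nascent transcript is cut downstream of its poly(A) signal by an endonuclease held in CPSF, with CstF, CFI and CFII choosing the site, and a poly(A) polymerase such as PAPS1 then adds the tail, whose growth nuclear poly(A)-binding proteins stimulate and limit in mammals. In the cytoplasm the CCR4-NOT complex shortens the tail, after which the message is decapped and digested from the 5′ end by XRN4 or from the 3′ end by the exosome. The nuclear exosome with its helicases and the nuclear XRN enzymes remove faulty or unused transcripts, and nonsense-mediated decay removes messages with early stop codons.

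The libraries held between 4541233 and 21031017 reads in genes. The shallowest, paps1-1 replicate 2, had 74.6% of its reads mapping to several places. In that library the 44 genes had 11 to 616 reads each, with a median of 67.5, against a lowest count of 38 to 60 per gene and a median of 152.5 to 258 in the other 5. Markers of the pollen tube (8 genes) summed to between 28132 and 70093 CPM (counts scaled to library size with TMM factors) in wild type and between 28630.2 and 43266 CPM in paps1-1. Most of this sum was 1 gene, VGD1, at 41237, 20582 and 52270 CPM in wild type and 20385.5, 22371 and 31959 CPM in paps1-1. Of 10 style and transmitting tract markers, 5 were high enough to test and summed with the rest to between 23.0 and 37.2 CPM over all libraries. HEC1, HEC2 and CRC had no read in any library. Sperm cell markers (5 genes) summed to 49.5 to 88.9 CPM in wild type and 94.6 to 133 CPM in paps1-1, which do not overlap. Green tissue markers reached 305 CPM in paps1-1 replicate 3, of which RBCS1A was 254 CPM, against 58.1 to 90.8 CPM elsewhere. Tapetum markers (4 genes) summed to at most 3.74 CPM in any library and ovule markers (3 genes) to 34.2 to 60.01 CPM. None of these markers was called. The part of these shifts in the values given for the 44 genes was not tested. PAPS1 itself (AT1G17980) stood at 143, 101 and 104 CPM in wild type and 88.4, 99.4 and 59.9 CPM in paps1-1, with no overlap, and its log2 fold change of -0.49 (SE 0.28) did not pass the test. Since a mutant allele can be transcribed at any level, this does not check the labels.

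The question put to the mutant was whether the transcripts of this machinery differ when a nuclear poly(A) polymerase is mutated. None of the 44 genes passed, higher or lower, by edgeR's quasi-likelihood test with 3 libraries per genotype (adjusted p under 0.05, Benjamini-Hochberg over 18317 genes), where 2.34% of all genes tested did, 1.16% higher and 1.18% lower. DESeq2 and limma-voom also called 0 of them. At an unadjusted p under 0.05 there were again 0 of 44 by edgeR, by DESeq2 and by limma-voom, where edgeR gave 10.3% of all genes tested; the smallest edgeR p was 0.101. Positive log2 fold changes were seen for 26 genes and negative ones for 18, from -0.48 to 0.42, with a median of 0.08 beside 0.03 over all genes tested. The median absolute log2 fold change was 0.18, beside 0.21 for the 11719 tested genes in the same range of mean abundance and 0.24 for all tested.

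A test that misses its threshold does not show equal levels, so the intervals are given as well. For 40 of the 44 genes the 95% interval of the log2 fold change lay inside a 2-fold change in either direction. This held for 73.9% of tested genes in the same abundance range and for 56.9% of all tested genes. The 4 others were AT4G25550, a 25 kDa subunit of CFI, with an interval of -1.08 to 0.11, the CPSF subunits FIPS5 and CPSF30, with -1.01 to 0.18 and -1.05 to 0.48, and the deadenylase gene CAF1b, with -0.52 to 1.09. The genotypes did not overlap in 6 genes, or 13.6%, where 14.7% of all genes tested show this. CPSF100, CSTF77 and MTR4 were higher in every paps1-1 library (3 of 44, beside 6.92% of all tested), and UPF1, AT4G25550 and CLPS3 lower (3 of 44, beside 7.82%). Chromosomes 1 and 3, where 3.7% of tested genes passed, carry 22 of the 44 genes, none of them called.

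**Figure D1:**
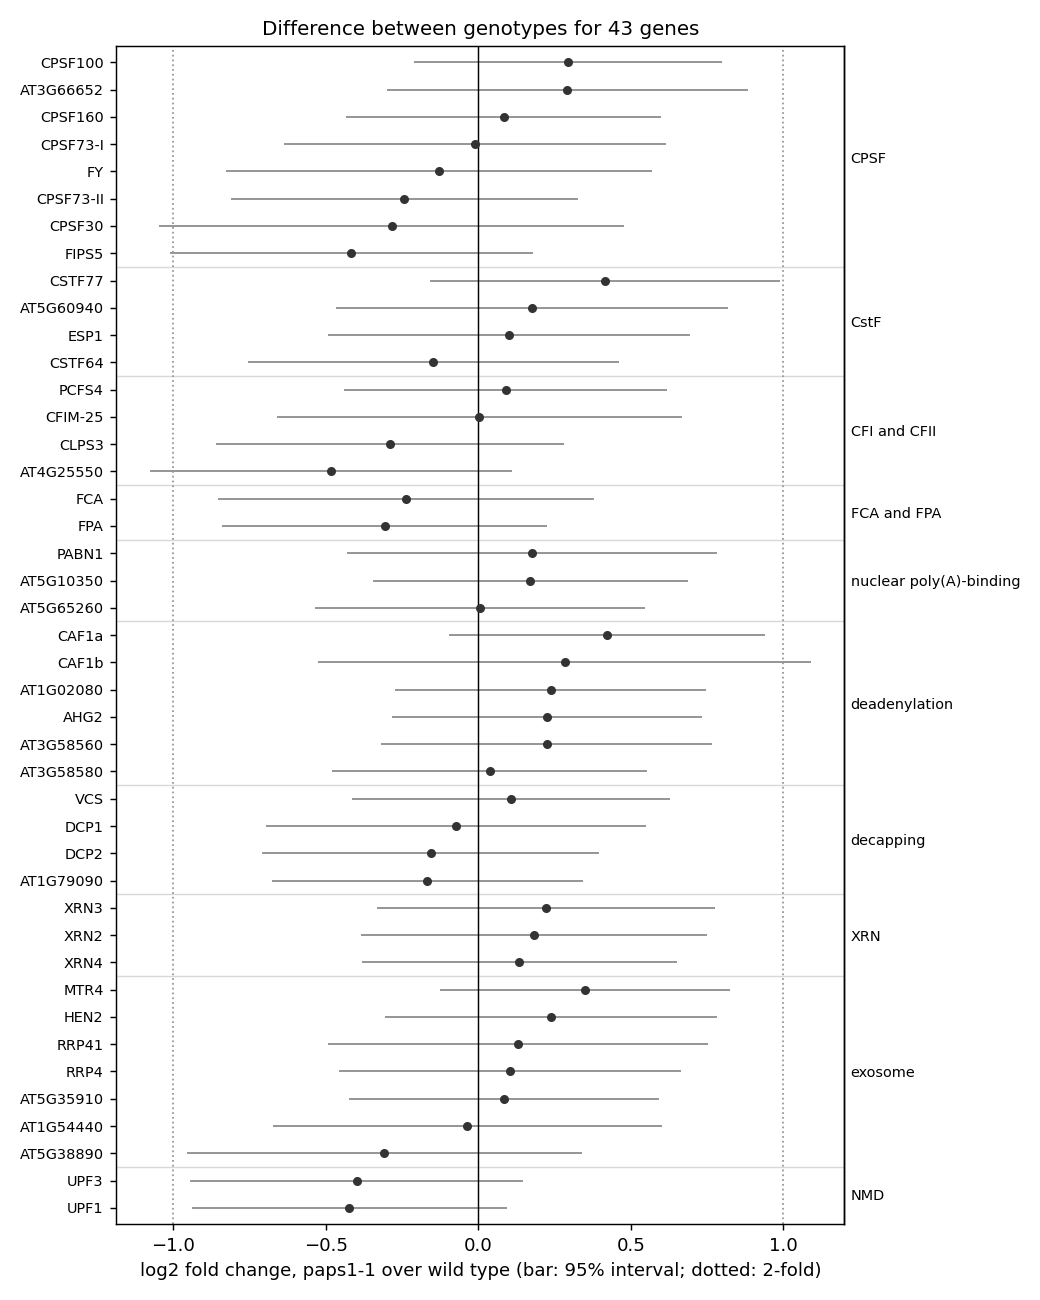
Log2 fold change of paps1-1 over wild type for 43 of the 44 genes, grouped by role (NMD is nonsense-mediated decay), with its 95% interval (3 libraries per genotype). All points lie between -0.48 and 0.42, every interval includes 0, and 4 intervals cross a dotted line at a 2-fold change.

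CPSF recognises the poly(A) signal and cuts the transcript. The endonuclease gene CPSF73-I stood at 13.6, 10.8 and 6.46 CPM in wild type and 8.37, 10.6 and 11.8 CPM in paps1-1. Its highest and lowest values were both wild-type, in replicates 1 and 3, so the genotypes overlap fully (log2 fold change -0.01, SE 0.29, 95% interval -0.64 to 0.62). Its relative CPSF73-II stood at 16.2, 18.9 and 29.8 CPM in wild type and 20.9, 17.4 and 16.4 CPM in paps1-1, with wild-type replicate 3 far above the other 5 libraries. CPSF100, a relative of the endonuclease without cutting activity in other eukaryotes, was the steadiest CPSF gene within wild type, at 9.45, 9.52 and 9.19 CPM, and all 3 paps1-1 values of 10.6, 11.9 and 12.1 CPM lay above these. Its log2 fold change was 0.29 (SE 0.24, 95% interval -0.21 to 0.80), with an adjusted p of 0.790 in the edgeR test. FIPS5, which encodes a Fip1-type protein, the subunit that binds the poly(A) polymerase in yeast, stood at 58.9, 33.8 and 69.1 CPM in wild type and 34.2, 40.4 and 46.5 CPM in paps1-1. The genotypes overlap because wild-type replicate 2 was the lowest of all 6 libraries (log2 fold change -0.42, SE 0.28, 95% interval -1.01 to 0.18). Without that library the value was -0.67, and without wild-type replicate 3 it was -0.23. The other Fip1-motif gene, AT3G66652, was at 4.70, 7.08 and 4.63 CPM in wild type and 6.05, 7.66 and 6.62 CPM in paps1-1, with a log2 fold change of 0.29 (SE 0.28, 95% interval -0.30 to 0.88). With 1 library left out, this value ranged from 0.16 without wild-type replicate 3 to 0.52 without wild-type replicate 2. It was 0.19 without wild-type replicate 1 or paps1-1 replicate 2, and 0.08 without wild-type replicate 3 and paps1-1 replicate 2 together. CPSF30 and FY, whose mammalian counterparts contact the poly(A) signal, and the large subunit CPSF160 had log2 fold changes of -0.28, -0.13 and 0.08. CPSF30 was split within paps1-1, at 2.49, 5.75 and 2.53 CPM, the highest value being that of replicate 2, and its log2 fold change was -0.70 without that library. It was -0.07 without paps1-1 replicate 1, -0.08 without paps1-1 replicate 3 and -0.44 without wild-type replicate 2, and -0.17 without wild-type replicate 1.

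CstF binds downstream of the cleavage site. CSTF77, its scaffold subunit, stood at 5.99, 6.71 and 4.49 CPM in wild type and 7.36, 9.15 and 6.82 CPM in paps1-1. The paps1-1 values begin just above the highest wild-type value, and wild-type replicate 3 was the lowest library. The log2 fold change was 0.42 (SE 0.27, 95% interval -0.16 to 0.99), with an adjusted p of 0.701 in the edgeR test. Without wild-type replicate 3 it was 0.24, and without paps1-1 replicate 2, the highest library, it was 0.28. CSTF64, which binds the RNA, ranged from 16.4 to 34.3 CPM in wild type and from 17.4 to 25.5 CPM in paps1-1. ESP1, a CSTF64-related gene, and AT5G60940, a WD40-repeat gene placed in this group, had log2 fold changes of 0.10 and 0.18.

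CFI and CFII help to place the cut, and CFI reads UGUA elements in mammals. AT4G25550, annotated as the 25 kDa CFI subunit, had the most negative log2 fold change of the 44 genes, -0.48 (SE 0.28, 95% interval -1.08 to 0.11). It stood at 11.3, 7.20 and 7.37 CPM in wild type and 7.18, 4.89 and 6.12 CPM in paps1-1. The groups do not overlap, but the lowest wild-type value, in replicate 2, and the highest paps1-1 value, in replicate 1, are nearly equal, and without wild-type replicate 1 the log2 fold change was -0.24. CFIM-25, its paralog, was at 3.10, 4.03 and 2.74 CPM in wild type and 4.15, 2.34 and 3.08 CPM in paps1-1, with a log2 fold change of 0.00. The CFII gene CLPS3, similar to the RNA kinase Clp1, stood at 6.20, 5.62 and 5.12 CPM in wild type and 5.04, 3.83 and 4.75 CPM in paps1-1. It was lower in every paps1-1 library, by a small margin between wild-type replicate 3 and paps1-1 replicate 1 (log2 fold change -0.29, SE 0.27, 95% interval -0.86 to 0.28). PCFS4, similar to the yeast termination factor Pcf11, had a log2 fold change of 0.09. FCA and FPA, RNA-binding proteins that favour proximal polyadenylation sites in antisense transcripts of a flowering repressor gene, stood highest in wild-type replicate 3. FPA was at 53.1, 56.2 and 82.7 CPM in wild type and 49.8, 54.5 and 50.9 CPM in paps1-1. The genotypes overlap, and the log2 fold change was -0.31 (SE 0.25, 95% interval -0.84 to 0.22). Without wild-type replicate 3, the highest library, it was -0.11. FCA had one of -0.24, with wild-type values from 11.3 to 24.9 CPM and paps1-1 values from 12.7 to 16.1 CPM inside that range.

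The 3 genes for nuclear poly(A)-binding proteins had log2 fold changes from 0.01 to 0.18, positive like most genes tested, and none passed. PABN1 stood at 22.3, 19.04 and 10.2 CPM in wild type and 19.5, 16.6 and 21.9 CPM in paps1-1. Wild-type replicate 3 was the lowest library by a wide margin, and the other 5 lay between 16.6 and 22.3 CPM (log2 fold change 0.18, SE 0.28, 95% interval -0.43 to 0.78). The related RNA-recognition-motif genes AT5G65260 and AT5G10350 were steadier. AT5G65260 was at 13.3, 8.97 and 10.3 CPM in wild type and 11.1, 9.36 and 11.98 CPM in paps1-1 (log2 fold change 0.01), and AT5G10350 at 12.4, 10.5 and 13.3 CPM in wild type and 12.1, 12.8 and 15.7 CPM in paps1-1 (log2 fold change 0.17). Their genotypes overlap in both cases.

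All 6 deadenylation genes had positive log2 fold changes, from 0.04 to 0.42, with a median of 0.23, and none passed. Over all genes tested, 9796 of 18317 were positive. Of 15 further deadenylation genes tested, from the list given below, 9 were positive and 6 negative. The CPM of the first 6 genes summed to 121, 132 and 131 in the wild-type libraries and 150.3, 167 and 136 in the paps1-1 libraries, as a description. CAF1a, a catalytic deadenylase that also responds to stress in Arabidopsis, had the largest log2 fold change of the 44 genes, 0.42 (SE 0.24, 95% interval -0.10 to 0.94). It stood at 13.3, 15.1 and 17.4 CPM in wild type and 23.5, 16.2 and 21.2 CPM in paps1-1. Replicates 1 and 3 of paps1-1 lay above all wild-type libraries, while replicate 2 lay inside the wild-type range. Its paralog CAF1b, at 8.73, 2.44 and 4.28 CPM in wild type and 5.28, 6.17 and 7.43 CPM in paps1-1, was the most variable gene within wild type, where the highest value was 3.57 times the lowest. The paps1-1 values lie inside that range, and leaving out wild-type replicate 1 took the log2 fold change from 0.28 to 0.91 and leaving out replicate 2 to -0.05. The DNase I-like genes AT3G58560 and AT3G58580, placed here with the CCR4-type deadenylases, stood at 13.2, 17.6 and 14.7 CPM in wild type and 16.9, 22.8 and 14.2 CPM in paps1-1 and at 14.5, 18.01 and 15.4 CPM in wild type and 17.4, 18.7 and 13.3 CPM in paps1-1. The levels of the pair are alike, and their genotypes overlap (log2 fold changes 0.22 and 0.04). Without paps1-1 replicate 2 the value of AT3G58560 was 0.01, and without paps1-1 replicate 3 it was 0.37. AT1G02080, which carries the Not1 domain of the complex's scaffold, was at 61.3, 68.2 and 69.98 CPM in wild type and 75.4, 90.6 and 69.6 CPM in paps1-1. Only its values in paps1-1 replicates 1 and 2 exceeded the wild-type range (log2 fold change 0.24, SE 0.24, 95% interval -0.27 to 0.75), and without paps1-1 replicate 2 the value was 0.10. AHG2, a poly(A)-specific ribonuclease that acts on mitochondrial transcripts in Arabidopsis, had a log2 fold change of 0.23.

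Decapping opens a message to digestion from its 5′ end. DCP2, the decapping enzyme, and DCP1, its activator, had log2 fold changes of -0.16 and -0.07, at 6.02 to 9.29 and 5.46 to 9.67 CPM over all libraries. VCS, the scaffold of the complex, stood at 55.8, 62.02 and 67.4 CPM in wild type and 65.9, 79.6 and 54.5 CPM in paps1-1, and AT1G79090, a PAT1-type decapping activator gene, at 38.7, 46.8 and 56.9 CPM in wild type and 45.1, 43.6 and 38.2 CPM in paps1-1. Both overlapped between genotypes, with log2 fold changes of 0.11 and -0.17. The 3 XRN genes all had positive log2 fold changes, the more common sign over all genes tested. XRN3, a nuclear enzyme, was the most abundant of the 44 genes per length, at 82.8, 103 and 129 CPM in wild type and 122, 131 and 113 CPM in paps1-1. Wild-type replicate 1 was lowest and the paps1-1 values lay in the upper part of the wild-type spread or just past it (log2 fold change 0.22, SE 0.26, 95% interval -0.33 to 0.78). The value was 0.08 without wild-type replicate 1, 0.15 without paps1-1 replicate 2 and 0.37 without wild-type replicate 3. XRN2, the other nuclear enzyme, stood at 19.2, 19.96 and 11.3 CPM in wild type and 16.1, 20.2 and 21.1 CPM in paps1-1, and wild-type replicate 3, the highest wild-type library for XRN3, was the lowest of all for XRN2. XRN4, the cytoplasmic enzyme, had a log2 fold change of 0.13.

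Among the exosome genes, the helicase gene MTR4, which serves ribosomal RNA processing in the nucleolus, stood at 24.9, 26.3 and 24.3 CPM in wild type and 31.6, 28.9 and 35.5 CPM in paps1-1. All paps1-1 values lay above all wild-type values, the wild-type libraries agreed to within 1.08-fold, and the log2 fold change was 0.35 (SE 0.22, 95% interval -0.13 to 0.83), with an adjusted p of 0.691 in the edgeR test. It stayed between 0.27 and 0.39 in every alternative, and the lowest adjusted p there was 0.599. HEN2, the related nucleoplasmic helicase, was at 10.7, 13.1 and 8.49 CPM in wild type and 10.98, 13.2 and 14.1 CPM in paps1-1, with overlapping genotypes and a log2 fold change of 0.24 (SE 0.26, 95% interval -0.31 to 0.78). This value was 0.07 without wild-type replicate 3, 0.15 without paps1-1 replicate 3 and 0.40 without wild-type replicate 2. AT5G38890, whose protein has the domain of the exosome cap subunit CSL4, had a log2 fold change of -0.31 (SE 0.30, 95% interval -0.96 to 0.34). It was -0.11 without wild-type replicate 2, -0.58 without paps1-1 replicate 1 and -0.19 without paps1-1 replicate 2. The gene stood at 5.21, 7.14 and 4.56 CPM in wild type and 5.93, 3.19 and 4.15 CPM in paps1-1, the lowest value being paps1-1 replicate 2, the shallowest library, with 15 reads. The cap subunit gene RRP4 and the ring subunit gene RRP41 had log2 fold changes of 0.10 and 0.13. The 2 genes with the exonuclease and HRDC domains of the RRP6 type stood at very different levels. AT5G35910 stood at 44.4, 38.9 and 29.8 CPM in wild type and 36.4, 40.2 and 43.2 CPM in paps1-1. AT1G54440 was at 3.72, 3.54 and 2.67 CPM in wild type and 3.03, 3.40 and 3.34 CPM in paps1-1, the lowest level per length of the 44 genes. Their log2 fold changes were 0.08 and -0.04.

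Of the genes of nonsense-mediated decay, UPF1 and UPF3 are described, and neither passed. UPF1, the helicase at the centre of the pathway, had the smallest unadjusted p of the 44 genes, 0.101. It stood at 96.8, 82.2 and 109 CPM in wild type and 70.3, 72.99 and 71.99 CPM in paps1-1. Every paps1-1 library lay below every wild-type library, and the paps1-1 libraries were close to each other. The log2 fold change was -0.42 (SE 0.24, 95% interval -0.94 to 0.09), with an adjusted p of 0.621 in the edgeR test, and it lay between -0.53 and -0.35 in every alternative. UPF3, which links UPF1 to marked messages, stood at 20.5, 26.8 and 32.9 CPM in wild type and 19.9, 24.7 and 16.8 CPM in paps1-1. The genotypes overlap because paps1-1 replicate 2 lay above wild-type replicate 1 (log2 fold change -0.40, SE 0.26, 95% interval -0.94 to 0.15), and without wild-type replicate 3 the value was -0.26.

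Levels can be compared between genes once divided by exon length. On that scale, CPM per kilobase of exon in wild type, the 44 genes spanned 1.12 to 29.8. XRN3 led at 29.8 ± 6.55 (SD, n = 3), above 87.3% of tested genes. UPF1 stood at 21.2 ± 3.00, below XRN3 in the mean but with a spread that meets its own. AT1G54440, at 1.12 ± 0.191, and CPSF30, at 1.25 ± 0.247, were the lowest and stood above 19.0% and 21.2% of tested genes. Subunits of one complex were not at one level. Across CPSF the highest, FIPS5 at 12.8 ± 4.32, was 10.3 times the lowest, CPSF30, and CPSF160, FY, CPSF100 and CPSF73-I lay between 1.95 and 3.58. Among CstF genes CSTF64 stood at 11.8 ± 4.20 and AT5G60940 at 1.65 ± 0.0992. The spread was 11.2-fold among exosome genes, and UPF1 stood 1.82-fold above UPF3.

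**Figure D2:**
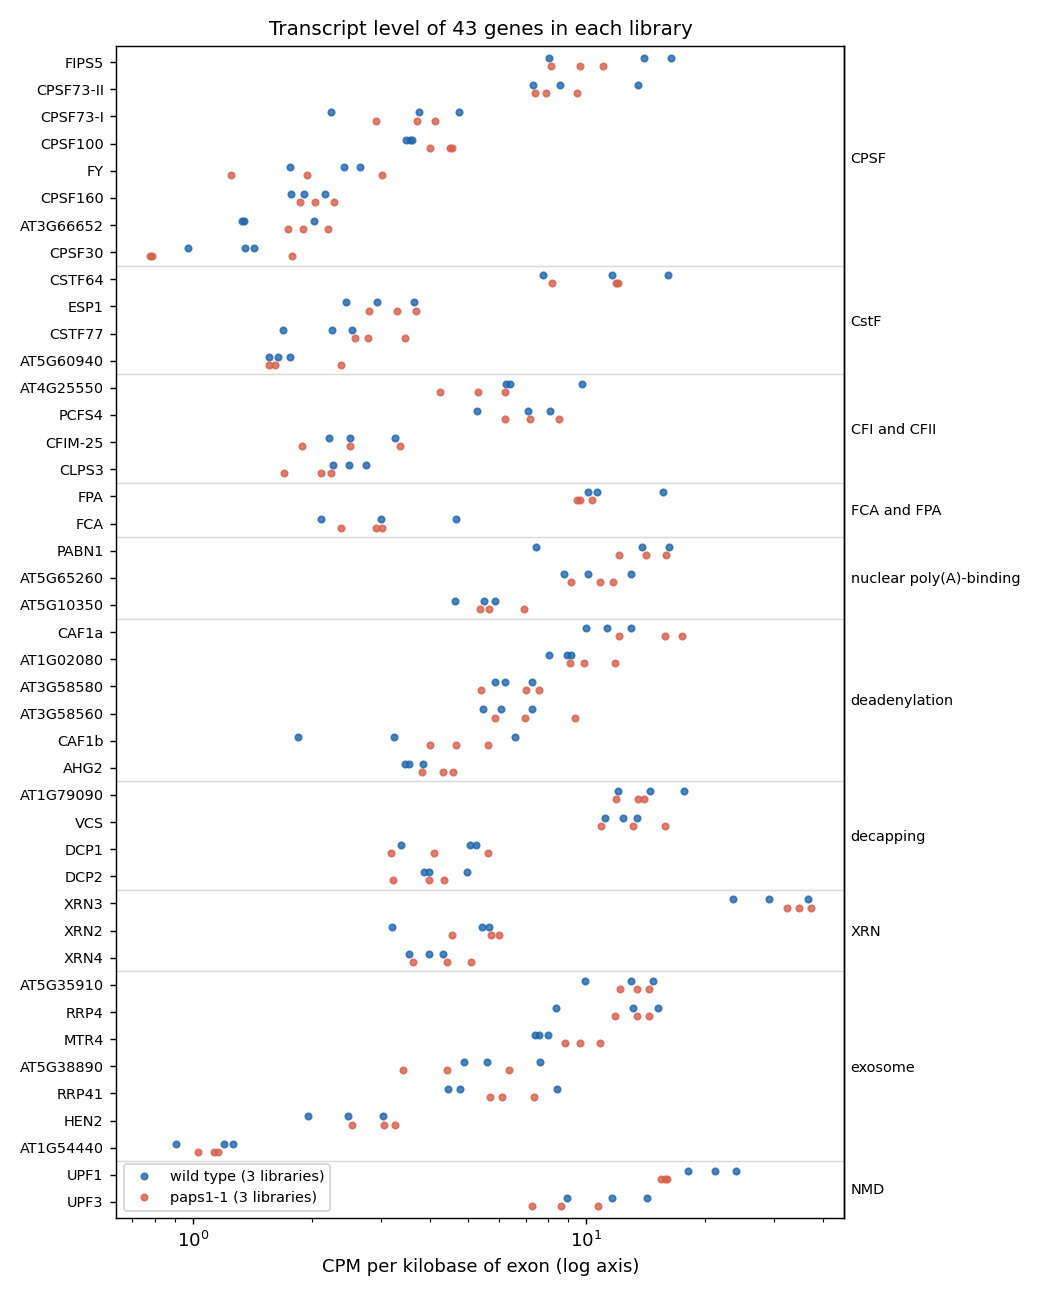
CPM per kilobase of exon on a log axis for 43 of the 44 genes, grouped by role and ordered by wild-type mean within each role; each point is 1 library, blue for wild type and red for paps1-1. Differences between genes, from 1.12 for AT1G54440 to 29.8 for XRN3 in the wild-type mean, are wider than those between the genotypes of a gene.

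Ratios of related genes within a library need no scaling factor, and 10 pairs were compared between genotypes (exact permutation test of 3 against 3 libraries, two-sided, smallest possible p 0.1). None reached that p: the lowest was 0.2, and every Benjamini-Hochberg adjusted p was 1.0 over the 10 pairs. With 0.1 as the smallest possible p, no pair could have passed a threshold of 0.05, so these p-values cannot decide whether a ratio differs. The genotypes overlapped in all 10. Several pairs kept one order in all 6 libraries after division by length. CAF1a stood above CAF1b, FIPS5 above AT3G66652 and CPSF73-II above CPSF73-I. XRN2 stood below XRN3, HEN2 below MTR4, CFIM-25 below AT4G25550, AT5G10350 below AT5G65260 and AT1G54440 below AT5G35910. The log2 ratio of reads of AT1G54440 over AT5G35910 was steady, at -3.49 ± 0.07 (SD, n = 3) in the wild-type libraries and -3.59 ± 0.08 (SD, n = 3) in those of paps1-1. AT3G58560 over AT3G58580 was likewise steady in wild type, at -0.07 ± 0.05, and stood at 0.11 ± 0.16 in paps1-1. Wild-type spreads were wide for CAF1a over CAF1b, with log2 ratios of 0.61, 2.62 and 2.01 against 2.15, 1.37 and 1.51 in paps1-1, and for CPSF73-II over CPSF73-I, with 0.25, 0.81 and 2.20 against 1.32, 0.71 and 0.47. In FIPS5 over AT3G66652 the mean was 3.26 ± 0.88 for wild type and 2.56 ± 0.22 for paps1-1, and the difference was -0.70 (p = 0.4 in the exact permutation test). Without wild-type replicate 2 it was -1.203, and without wild-type replicate 3 it was -0.38. The difference for CFIM-25 over AT4G25550 was 0.43. Leaving out wild-type replicate 1 lowered it to 0.19, while leaving out wild-type replicate 2 raised it to 0.70. With any other library left out it ranged from 0.36 to 0.48.

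**Figure D3:**
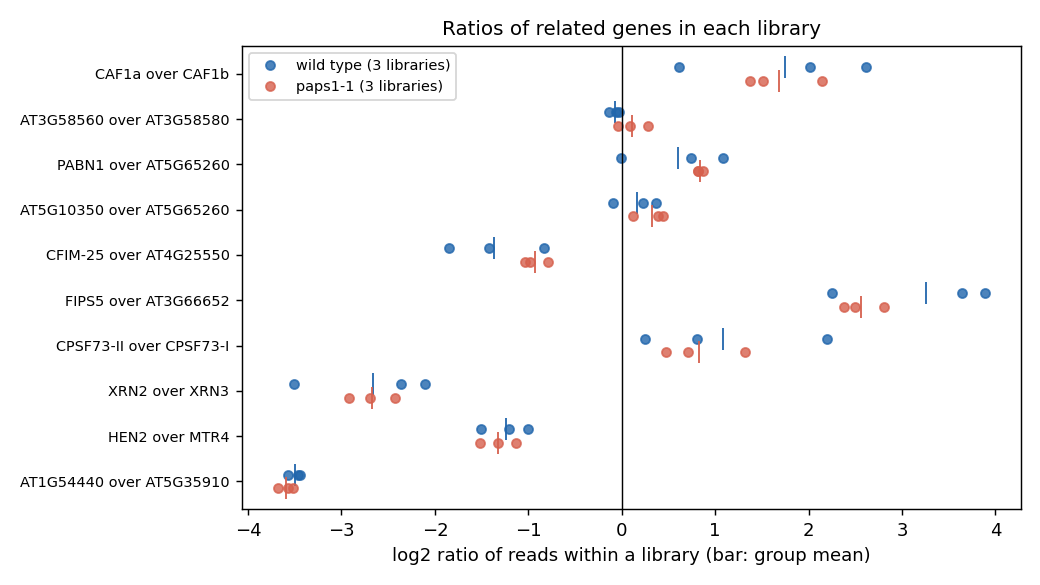
Log2 ratio of reads of 2 related genes within each library, for 10 pairs; points are libraries, blue for wild type and red for paps1-1, and the short bars are group means of 3. The genotypes overlap in every pair, and the wild-type points of CAF1a over CAF1b spread from 0.61 to 2.62.

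The 44 genes also varied within wild type, as did the tested genes in general. Wild-type replicate 3 had the highest sum of pollen tube markers (70093 CPM, mostly VGD1) and the lowest sum of style markers (23.0 CPM). It was the highest library for 9 of the genes and the lowest for 15. Together that is 54.5%, beside 53.0% of all genes tested. Among the genes highest there were UPF1, UPF3, FIPS5, CPSF73-II, CSTF64, FCA, FPA and AT1G79090, and among the lowest were PABN1, CPSF73-I, XRN2, RRP4, RRP41, CSTF77, HEN2, MTR4, AT5G35910 and AT1G54440. Relative to the mean log2 CPM of the other wild-type libraries, FCA stood 0.89 higher in replicate 3, CPSF73-II 0.77 and CSTF64 0.77, while PABN1 stood at -1.01, CPSF73-I at -0.91 and XRN2 at -0.79. The median absolute shift was 0.35 over the 44 genes and 0.45 over all genes tested. For FCA, CPSF73-II, CSTF64, PABN1, CPSF73-I and XRN2 these shifts are larger than the log2 fold changes between genotypes, while for UPF1, MTR4, CPSF100 and CAF1a they are smaller. The part of tissue balance in them was not tested. Without that library the log2 fold changes of 13 genes took the other sign, among them FCA (0.08), CSTF64 (0.11), PABN1 (-0.11) and RRP4 (-0.14), and the median over the 44 genes went from 0.08 to -0.01; without paps1-1 replicate 2 it was 0.0012. The shallow paps1-1 replicate 2 was the highest library for 12 genes, or 27.3% beside 17.8% of all tested, and the lowest for 4.

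**Figure D4:**
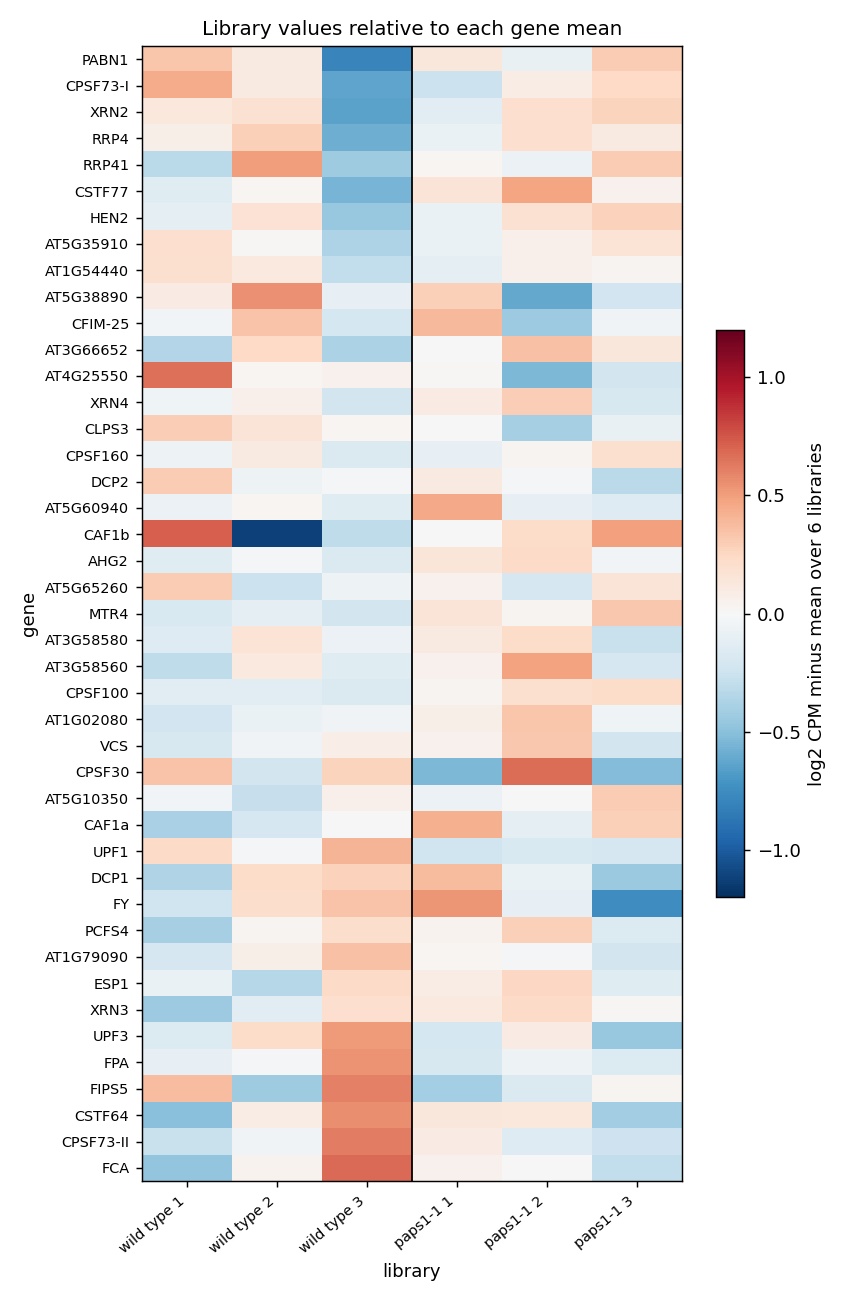
Log2 CPM of 43 of the 44 genes in each library minus the mean of that gene over the 6 libraries (red higher, blue lower), with genes ordered by their value in wild-type replicate 3 relative to the other wild-type libraries. The column of wild-type replicate 3 runs from PABN1 at the top (-1.01 against the other wild-type libraries) to FCA at the bottom (0.89).

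A further list of 54 genes of the same pathways was read from the same fit. Of these, 49 could be tested, 25 with positive and 24 with negative log2 fold changes, and the median was 0.01. None passed in the edgeR test (0 of 49, with 2 at an unadjusted p under 0.05); limma-voom called 0, and DESeq2 called 1. The 1 gene was AT5G60170, an RNA-recognition-motif protein gene listed with CCR4-NOT, which stood at 97.3, 82.96 and 166 CPM in wild type and 66.7, 57.9 and 47.2 CPM in paps1-1. Every paps1-1 library lay below every wild-type library, with wild-type replicate 3 the highest. Its log2 fold change was -1.01 (SE 0.30, 95% interval -1.64 to -0.38), with an adjusted p of 0.111 by edgeR. The gene passed by DESeq2 (adjusted p = 0.0299) and by edgeR with no filter on low counts (adjusted p = 0.0154). Its log2 fold change depended on wild-type replicate 3, being -0.6842 without that library. It was -0.6869 without wild-type replicate 3 and paps1-1 replicate 2 together, and -0.8901 without paps1-1 replicate 3. With any other library left out it was -1.0394 or lower. The similar RNA-recognition-motif gene AT3G45630 was at 34.6, 42.1 and 60.2 CPM in wild type and 68.7, 70.4 and 49.5 CPM in paps1-1, with a log2 fold change of 0.46. AT3G22270, a second PAT1-type gene, stood at 19.4, 16.8 and 25.8 CPM in wild type and 12.5, 14.9 and 15.01 CPM in paps1-1 (log2 fold change -0.55, SE 0.25, 95% interval -1.08 to -0.02, adjusted p = 0.447). AT5G12980, an Rcd1-like gene listed with CCR4-NOT, stood at 5.01, 5.62 and 7.30 CPM in wild type and 4.81, 2.13 and 4.55 CPM in paps1-1, with a log2 fold change of -0.56 (SE 0.31). By role, the median log2 fold change of the listed genes was 0.15 for deadenylation (15 tested), -0.13 for decapping (9), 0.19 for the exosome (14), -0.08 for 3′ end processing (6) and 0.01 for nonsense-mediated decay (5).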

How the data were processed

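Gene counts of 3 wild-type and 3 paps1-1 libraries were analysed. The authors deposited 1 file of raw counts per library, with an unstranded and 2 stranded columns, made with STAR on the TAIR10 build, per the submitters' processing notes; STAR's version and the annotation were not stated there. The unstranded counts were used, since the 2 strands held nearly equal totals (ratio 1.02 to 1.07), so reads of overlapping antisense genes cannot be told apart, nor can reads that map equally well to close paralogs be counted. The rows that name no gene stayed outside library sizes and all tests. Of a library, unmapped reads took 1.32% to 4.36%, reads mapping to several places 7.28% to 74.6%, reads outside genes 2.71% to 9.93% and ambiguous reads 0.228% to 1.65%.

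Genes were filtered with filterByExpr (minimum count 10), scaled with TMM factors and tested with the quasi-likelihood test of edgeR 4.0.16 in R 4.3.3, two-sided, with Benjamini-Hochberg adjustment over all genes tested and a threshold of 0.05. Log2 fold changes are paps1-1 over wild type, with a standard error taken from the F statistic and a 95% interval. Alternatives were counts of the larger strand, RLE and upper-quartile factors, testing all 26229 genes with a read, requiring 5 CPM in 3 libraries, a replicate block, each library left out, 2 doubted libraries left out together, DESeq2 1.42.0 and limma-voom (limma 3.58.1); pair ratios used a pseudocount of 0.5 reads. The scripts were tested on simulated data. Gene names, products and exon lengths came from the TAIR10.1 RefSeq annotation, which matched 32835 of the 33323 identifiers; genes it does not name are given by identifier. Coordinates and sequences were not used here.

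The 44 genes, the further list of 54 and the marker lists were chosen with earlier results of these data known. All 44 genes may be named, except 1 gene that is counted among them but not reported here; values in every library are given for the 12 with the smallest unadjusted p and for the members of 10 related pairs, and from the further list for genes called and the 4 with the smallest p. Some other genes are also given in every library, a choice made after their values were seen. The labels call only the wild-type libraries biological replicates, and p-values here measure only how these libraries scatter, which may be technical. Counting error limits the genes of few reads most, above all in paps1-1 replicate 2.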

Additional observations from a re-analysis of the deposited data

How the results depend on the processing

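None of the 44 genes was called under any of the 15 alternatives (38 could be tested with the 5 CPM filter), and the lowest adjusted p reached was 0.295, for CAF1b without wild-type replicate 1. Over all genes, 429 were called, against 1042 with no filter, 216 with the 5 CPM filter, 237 without wild-type replicate 3 and paps1-1 replicate 2 together and 333 to 456 with 1 library left out; DESeq2 called 620 and limma-voom 387. Of the further list, 1 gene was called with no filter and 1 by DESeq2. The median of the 44 genes, 0.083, ranged from -0.0059 to 0.0913 with 1 library left out and was 0.0018 without both doubted libraries. In deviations from the group means, same-numbered libraries of the 2 genotypes correlated at -0.256, 0.126 and -0.151, and differently numbered ones at -0.157 to 0.336. Whether same-numbered libraries shared anything but a number was not tested. With the replicate block 482 genes and 0 of the 44 were called, and the median was 0.0915. Of 654 gene and alternative combinations 66 changed sign, in 23 genes, and the cause was not tested. With the larger strand the log2 fold changes were -0.0037 for RRP4, 0.0088 for DCP1, 0.0758 for AT1G54440 and 0.0472 for CPSF73-I, and the log2 ratio difference of AT1G54440 over AT5G35910 was 0.0305. CFIM-25 stood at -0.0114 with RLE factors, -0.0036 with upper-quartile factors, -0.0091 with no filter and -0.0136 by DESeq2. AT5G65260 stood at -0.0116 with RLE factors, -0.0083 with no filter and -0.0105 by DESeq2. CPSF73-I stood at 0.0048 with the 5 CPM filter, 0.0425 with the block and 0.0335 by limma-voom. Without both doubted libraries the values were 0.0624 for CPSF73-II, -0.012 for AT3G58560, 0.0545 for FCA, -0.0977 for XRN2, -0.0208 for PABN1, -0.0706 for XRN4, 0.0395 for CSTF64, -0.1933 for RRP4, 0.0027 for FY, -0.0919 for AT5G35910, 0.0427 for DCP1, -0.1058 for AT3G58580 and -0.0023 for CFIM-25. With 1 library left out, log2 fold changes spanned 0 from -0.1946 to 0.0562 for AT1G54440, -0.0775 to 0.1719 for AT3G58580, -0.0912 to 0.215 for AT5G35910, -0.0674 to 0.3121 for AT5G60940, -0.1174 to 0.1758 for AT5G65260, -0.0545 to 0.9113 for CAF1b, -0.2344 to 0.1692 for CFIM-25, -0.0101 to 0.1605 for CPSF160, -0.2838 to 0.2452 for CPSF73-I, -0.4178 to 0.031 for CPSF73-II, -0.3818 to 0.1114 for CSTF64, -0.3479 to 0.1231 for DCP1, -0.0295 to 0.2269 for ESP1, -0.4759 to 0.0827 for FCA, -0.565 to 0.1665 for FY, -0.1127 to 0.4067 for PABN1, -0.069 to 0.1964 for PCFS4, -0.1377 to 0.2875 for RRP4, -0.0591 to 0.4817 for RRP41, -0.0588 to 0.2311 for VCS and -0.065 to 0.3212 for XRN2. The differences of log2 ratios did so from -0.6381 to 0.3661 for CAF1a over CAF1b, -0.673 to 0.3052 for CPSF73-II over CPSF73-I, -0.2199 to 0.0352 for HEN2 over MTR4, -0.0794 to 0.4671 for PABN1 over AT5G65260 and -0.4421 to 0.255 for XRN2 over XRN3. Depth limits the lowest genes: CFIM-25 had 11 reads in paps1-1 replicate 2.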

Other observations

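Several relatives of the genes described were nearly silent in all 6 libraries. AT1G27820, AT1G27890 and AT3G44240, listed with the CAF1-type deadenylases, had 10, 15 and 1 reads in all libraries together, and AT2G32550, an Rcd1-like gene listed with CCR4-NOT, had 3. CLPS5 (AT5G39930), the relative of CLPS3, had 25 reads in all, with 4, 2 and 3 in the wild-type libraries and 7, 4 and 5 in the paps1-1 libraries. These 5 genes were too low to test.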
